A study of Mus musculus with 2 samples.

Results

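The matrix metalloproteinases (MMPs) and their tissue inhibitors (TIMPs) were examined in bone marrow-derived macrophages (BMDMs) left untreated or treated with IL-4 for 18 h. The 10 genes comprised 7 MMPs, Mmp2, Mmp8, Mmp9, Mmp12, Mmp13, Mmp14 and Mmp19, and 3 inhibitors, Timp1, Timp2 and Timp3, among 32448 genes or unnamed transcripts on the arrays. They were chosen by gene name, and their probes were found through the RefSeq accession that the scanner files give for each probe. The 10 genes had 12 probes, with 2 probes each for Mmp12 and Timp2 and 1 probe for each of the other 8 genes. All 12 probes were well above background on both arrays by the scanner software's own flag, and none had a spot marked as an outlier. All 10 genes were therefore measured in both conditions, and no filter on low values removed any of them.

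Both cultures were grown from the bone marrow of 8-week-old male mice with loxP-flanked alleles of Crif1 (Crif1 f/f) on a C57BL/6 background, for which the methods name no Cre driver. The cells were differentiated in M-CSF, a growth factor for macrophages, and the concentration of IL-4 used for the arrays is not given in the sources used here. Each condition is represented by the Cy3-labelled RNA of 1 single-colour Agilent mouse array, so 2 arrays carry the whole comparison. With 1 array per condition there was no replicate check on any difference and no p-value was computed.

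MMPs are zinc-dependent endopeptidases that cleave the proteins of the extracellular matrix, and most are secreted as inactive proenzymes whose prodomain must be removed. Collagenases such as MMP8 and MMP13 cut fibrillar collagen, gelatinases (MMP2 and MMP9) degrade denatured collagen and basement membrane collagen, and MMP12 is the elastase of macrophages. MMP14 is anchored in the cell membrane and activates pro-MMP2 at the cell surface, with TIMP2 taking part in that step. TIMPs bind the active site of MMPs and block it, and macrophages are a source of both enzymes and inhibitors when tissue is remodelled.

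Of the 10 genes, only Mmp13 differed by at least 2-fold between the arrays, and the 3 TIMP genes had nearly the same scaled signal in both. The values given are the background-subtracted intensity of a probe on each array, and the log2 difference is IL-4-treated minus untreated after each array was scaled to its own 75th percentile. That percentile was 9.84 for untreated and 9.94 for IL-4-treated BMDMs on the log2 scale, so an equal intensity on both arrays gives a slightly negative difference. Over all genes measured on both arrays, 2.11% were higher by 2-fold or more after IL-4 and 1.57% were lower by as much. When genes that passed the background flag on a single array were added, these shares were 2.86% and 4.47%. Of all genes at least 2-fold different, 39.0% were higher with this scaling and 69.4% with spike-in scaling, the largest share among the scalings run. Set against these shares, 1 higher and 0 lower among 10 genes is no result about the family. The median log2 difference of the 10 genes was -0.04, against -0.01 for all 17242 genes measured on both arrays.

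**Figure D1:**
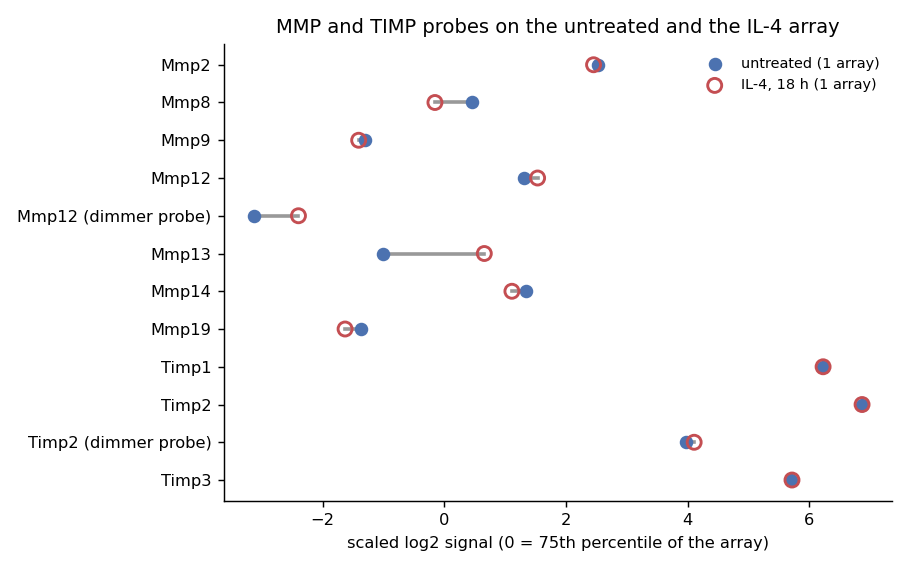
Scaled log2 signal (0 is the 75th percentile of the array) of each of the 12 probes on the untreated array (filled) and on the IL-4 array (open), 1 array each. The pair for Mmp13 is the widest apart, from -1.01 to 0.66, while the TIMP pairs overlap. Signals of different probes are not comparable with each other.

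The collagenase genes differed in opposite directions. Mmp13, which encodes collagenase 3, had an intensity of 455 in untreated and 1546 in IL-4-treated BMDMs. The error that the scanner software estimates for these intensities was 45.9 and 155. This software error was about 10% of the intensity for the brightest probe of each of the 10 genes, so it hardly differs between them. The log2 difference of Mmp13 was 1.66, a 3.17-fold higher signal after IL-4. The SD between spots of such a difference was 0.061, as the median over the 75 probes near this signal that the array carries in 10 spots. Carrying the software's own error through to the difference gave 0.21. The difference exceeded both errors, which cover the array measurement and not the spread between cultures. Of all genes measured on both arrays, 0.603% had a larger difference than Mmp13. Mmp8, the collagenase that neutrophils store in their granules, had an intensity of 1255 in untreated and 881 in IL-4-treated BMDMs. Its log2 difference was -0.61, a 1.53-fold lower signal that stayed inside the 2-fold limit, with an SD between spots of 0.057 and a software error of 0.20. Of the genes measured on both arrays, 5.16% had a more negative difference. The log2 differences of the 2 collagenases lay 2.27 apart, a distance that no constant scaling between arrays can alter.

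Neutrophil markers were read beside Mmp8. Of 9 such markers, 8 had a probe by this match and all 8 were well above background on both arrays. None of them reached a 2-fold difference, 7 of 8 were below 0 and their median log2 difference was -0.36. Camp had a log2 difference of -0.61, Ltf of -0.54 and Ngp of -0.80. These genes encode cathelicidin, lactoferrin and neutrophilic granule protein, which like MMP8 are stored in granules. Of the genes of the earlier azurophil granules, Prtn3 had -0.49, Elane -0.23 and Mpo 0.30. S100a8 had -0.17 and S100a9 -0.10. The summed intensity of the 8 markers was 39399 in untreated and 37618 in IL-4-treated BMDMs, mostly from S100a9, with a scaled log2 difference of -0.17. The sum of the 5 macrophage markers also had -0.17. The median log2 difference of those 5 by brightest probe was -0.70, with 3 below 0 and 2 above. The part of neutrophil or precursor RNA in the value of Mmp8 was not tested, and in such bulk RNA fewer cells of a type and less RNA per cell cannot be told apart.

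The gelatinase genes differed little. Mmp2 had an intensity of 5285 in untreated and 5371 in IL-4-treated BMDMs, and its log2 difference of -0.08 was smaller than the software error of 0.20. Mmp9 was the only one of the 10 genes whose probe was printed in 10 spots, so its error could be read directly. In untreated BMDMs the 10 intensities ran from 314 to 424 with a median of 374, and in IL-4-treated BMDMs from 336 to 412 with a median of 370. The 2 ranges overlapped almost wholly. Spot by spot, the scaled log2 difference of Mmp9 was -0.11 ± 0.058 (SD over 10 spots of 1 array pair), between -0.18 and 0.0003, and 9 of 10 spots were below 0. This mean shift was about as large as the scaling offset between the arrays, and it was 0.22 with spike-in scaling, which raised the median of all genes by 0.33. The 2 gelatinases lay within 0.03 of each other on the log2 scale.

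Mmp12 was read by 2 probes that agreed in direction and not in size. The brighter probe had an intensity of 2259 in untreated and 2838 in IL-4-treated BMDMs, a log2 difference of 0.23 or a 1.17-fold higher signal. The dimmer probe went from 105 to 186, a log2 difference of 0.72 or a 1.65-fold higher signal. Their SDs between spots were 0.052 and 0.12, so the probes differed from each other by more than the spot error. Both probes carry the same accession, and the files do not say which exons they detect. Neither probe reached a 2-fold difference.

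Mmp14, the membrane-type enzyme, had an intensity of 2333 in untreated and 2118 in IL-4-treated BMDMs and a log2 difference of -0.24. Mmp19, a secreted MMP, had intensities of 355 and 316 and a log2 difference of -0.27. Both differences were larger than the SD between spots, 0.052 and 0.075, and slightly larger than the software errors of 0.20 and 0.21. Spike-in scaling, which raised the median of all genes by 0.33, gave 0.09 for Mmp14 and 0.06 for Mmp19, and relative to such shifts both stayed below 0 in every setting run. Of the genes measured on both arrays, 20.9% lay below Mmp14 and 18.8% below Mmp19.

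With 75th percentile scaling, the inhibitor genes had the smallest log2 differences among the 10 genes at their brightest probes. Without scaling, Mmp9 at -0.01 and Mmp2 at 0.02 had smaller ones than the inhibitors, at 0.10 to 0.11. Timp1 had an intensity of 68468 in untreated and 73521 in IL-4-treated BMDMs and a log2 difference of 0.003. Timp2 had intensities of 106505 and 114647 at its brighter probe, a log2 difference of 0.007. The dimmer Timp2 probe went from 14458 to 16907, a log2 difference of 0.13. Timp3, which unlike the other TIMPs binds to the extracellular matrix, had intensities of 47648 and 51578 and a log2 difference of 0.015. The raw intensities of all 4 TIMP probes were higher on the IL-4 array. At the brighter probes this excess nearly equalled the difference between the 75th percentiles of the arrays. Few probes printed in 10 spots were this bright, 3 for Timp1 and Timp3 and 2 for Timp2, so their spot SDs of 0.039 and 0.058 rest on little. Each of these values lay within the software error of 0.20. The sign of the 3 genes depended on the scaling, from -0.06 with cyclic loess for Timp1 and Timp2 and with quantile normalization for Timp3 to between 0.33 and 0.34 with spike-in scaling. Read against the median of the 3 inhibitors on the same arrays, Mmp13 was 1.66 higher on the log2 scale, Mmp12 0.22 higher and Mmp8 lower, at -0.62. The other 4 MMPs lay between -0.27 and -0.08 on this scale.

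**Figure D2:**
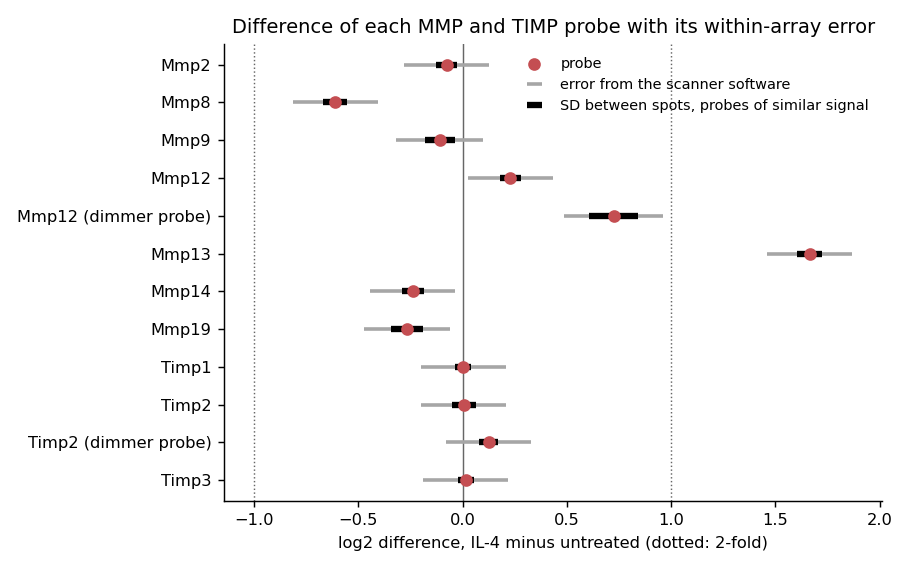
Log2 difference, IL-4-treated minus untreated, of each probe (points). Black bars are the median SD between spots for probes of similar signal, and grey bars the error carried through from the scanner software. Dotted lines mark 2-fold. Mmp13 at 1.66 lies beyond the line with both errors, and Mmp8 at -0.61 is the lowest.

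Mmp13, Mmp12 and Mmp8 lie in a cluster of MMP genes on chromosome 9, where RefSeq lists 10 MMP genes in a row with no other protein-coding gene between them. Their order is Mmp13, Mmp12, Mmp1b, Mmp3, Mmp1a, Mmp10, Mmp8, Mmp27, Mmp20 and Mmp7. Genes of this cluster are known for promoters in which a site for AP-1, the Fos and Jun dimer, lies shortly before a TATA box. The windows from 100 bases before to 20 bases after the annotated start are shown for the 4 cluster genes measured on both arrays, because these neighbours differed in opposite directions. They are RefSeq sequences on GRCm38.p6, plus strand, 5′ to 3′. Capitals mark the AP-1 motif, which is TGAGTCA when read on its own strand and is seen in reverse complement in Mmp13. In Mmp13, Mmp12 and Mmp3 the second stretch of capitals is the TATA motif, TATAAA. In Mmp8 the only capitals are the TATA motif in reverse complement, and there is no AP-1 motif. RefSeq gives Mmp12 a pair of starts, and the window of the first start, not shown, held neither motif.

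Mmp13, chr9:7272414-7272533: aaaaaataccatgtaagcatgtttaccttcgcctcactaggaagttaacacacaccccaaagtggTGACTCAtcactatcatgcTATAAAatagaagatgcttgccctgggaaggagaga
Mmp12, second annotated start, chr9:7347274-7347393: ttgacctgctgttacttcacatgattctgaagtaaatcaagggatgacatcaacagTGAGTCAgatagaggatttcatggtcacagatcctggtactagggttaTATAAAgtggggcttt
Mmp3, chr9:7445722-7445841: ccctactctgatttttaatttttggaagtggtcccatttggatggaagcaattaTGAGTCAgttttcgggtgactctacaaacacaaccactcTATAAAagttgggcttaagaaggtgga
Mmp8, chr9:7558329-7558448: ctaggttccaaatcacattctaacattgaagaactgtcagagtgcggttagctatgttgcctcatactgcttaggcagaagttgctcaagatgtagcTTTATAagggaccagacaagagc

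In the full windows of 250 bases before to 50 bases after the start, both strands were searched for these motifs, which did not overlap in these genes. Both motifs occurred together in 7 of the 10 cluster genes, namely Mmp13, Mmp12, Mmp1b, Mmp3, Mmp1a, Mmp10 and Mmp7. Among all 32851 promoter windows, 5.2% held the AP-1 motif, 13.6% held the TATA motif and 0.941% held both. These are shares of single windows, while a gene was counted if any of its windows matched. The AP-1 motif was found in 0 of the 12 MMP and TIMP genes outside the cluster that had a window, Mmp14, Timp1, Timp2 and Timp3 among them. Beside the 5.2% of all windows, 0 of 12 is no result about these genes. In Mmp13 the AP-1 motif spanned bases -35 to -29 and the TATA motif bases -16 to -11 from the annotated start. In Mmp3 they spanned -46 to -40 and -7 to -2. In Mmp12 the TATA motif lay after the annotated start, at bases 5 to 10, and in Mmp8 it crossed the start, from -3 to 3. The motif of STAT6, the factor that IL-4 activates, was searched as TTC and GAA with 4 bases between them. It was found in 0 of the 22 MMP and TIMP genes with a window and in 6.95% of all windows. Other spacings, such as the shorter one of the putative STAT6 site that the authors printed, were not searched. Variants of the AP-1 motif were not searched either. A match is a run of letters and not a binding site, and a window without the motif says nothing about sites elsewhere. Mmp2, Mmp9 and Mmp19 had no entry.

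Cluster genes that hold both motifs differed in direction on the arrays. Mmp13 had a log2 difference of 1.66 and its next neighbour Mmp12 one of 0.23. Mmp3, which encodes stromelysin 1 and is not among the 10 genes, had intensities of 1331 in untreated and 930 in IL-4-treated BMDMs and a log2 difference of -0.62. Mmp8, with no AP-1 motif in its window, had -0.61. Mmp13 and Mmp3 therefore lay 2.28 apart on the log2 scale. Of the other cluster genes, Mmp7 passed the background flag only after IL-4, with a lower bound of 0.37. Mmp1a, Mmp1b, Mmp10 and Mmp20 passed it on neither array, and Mmp27 had no probe by this match.

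**Figure D3:**
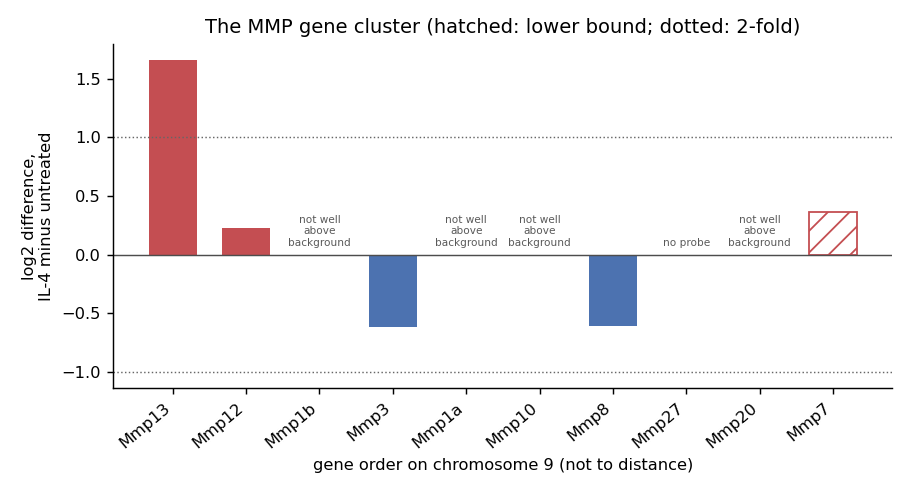
Log2 difference, IL-4-treated minus untreated, of the MMP genes in their order on chromosome 9, 1 array per condition. Solid bars were measured on both arrays, the hatched bar is a lower bound and dotted lines mark 2-fold. Mmp13 at the end of the row is at 1.66, and Mmp3 and Mmp8 lie at -0.62 and -0.61.

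The rest of the MMP and TIMP family was read for comparison. Of 17 further genes, 16 had a probe, 7 were well above background on at least 1 array and 4 on both. None of the 7 reached a 2-fold difference with this scaling, while 1 was at least 2-fold higher with median, spike-in, quantile and cyclic loess scaling, and 1 higher and 1 lower in the authors' processed values. The brightest probe was that of Mmp23, with intensities of 4053 and 5434 and a log2 difference of 0.32. The other genes measured on both arrays were Mmp11 at 0.33, Mmp17 at -0.15 and Mmp3 at -0.62. Mmp28 had a lower bound of 0.81 and Mmp24 an upper bound of -0.78, each well above background on 1 array. Timp4, the inhibitor found mainly in heart, was well above background on neither array.

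Genes that switch MMPs on or hold them in check were mostly within 2-fold. Plasmin, made from plasminogen by the urokinase Plau or by Plat, can activate pro-MMPs, and Serpinb2 inhibits these activators. Of 20 such genes, 18 were well above background on at least 1 array and 16 on both. Of these, 2 were higher by at least 2-fold, both inhibitors of proteases, and 0 were lower by as much. Serpinb2 had intensities of 800 in untreated and 1944 in IL-4-treated BMDMs, a log2 difference of 1.18 or a 2.27-fold higher signal. Tfpi2, an inhibitor of plasmin and other serine proteases, went from 16.0, which was not well above background, to 113. It was at least 3.61-fold higher, a log2 bound of 1.85, which became 0.81 with normexp background correction. The median log2 difference of the 16 measured genes was -0.09, against -0.01 for all genes. Other values in this group, named after they were seen, were Plau at 0.62, Plat at -0.59 and Plaur, the urokinase receptor, at 0.10. Lcn2, which binds MMP9 and is also stored in neutrophil granules, had -0.71. Sparc, the brightest of the list, had -0.06. Furin, which cleaves the prodomain of pro-MMP14, had -0.17, and Reck, a membrane-anchored MMP inhibitor, had -0.11 at its brighter probe and a lower bound of 0.48 at the other.

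The ADAM and ADAMTS proteases are relatives of the MMPs with the same type of zinc site, and ADAMs shed proteins from the cell surface. Of 30 genes, 23 were well above background on at least 1 array and 19 on both, with a median log2 difference of 0.0006. At least 2-fold higher was 1 gene, Adamts15, from 29.7 to 102 and at least 3.20-fold, and 1 was at least 2-fold lower, Adamts16, from 90.9 to 7.07 and by at least 3.49-fold. The dim array of each gene was not well above background. The other Adamts16 probe was well above background on neither array, with intensities of 7.21 in untreated and 6.87 in IL-4-treated BMDMs. With normexp the values moved from 1.68 to 0.49 for Adamts15 and from -1.80 to -0.98 for Adamts16. Adam8, the brightest of the list, had intensities of 56618 and 88778 and a log2 difference of 0.55. Adamts1 lay just inside the 2-fold limit at 0.99. Adamts5 had 0.26 at its brighter probe, while its dimmer probe went from 36.6 to 83.3, a log2 difference of 1.09. The count of higher genes was 2 with median scaling and without scaling and 3 with spike-in scaling.

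**Figure D4:**
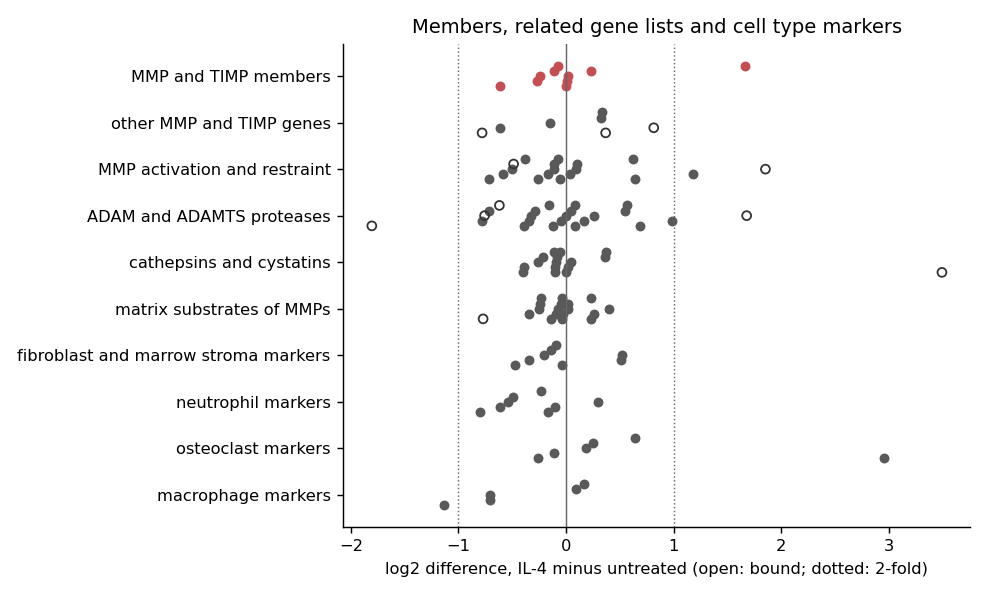
Log2 difference, IL-4-treated minus untreated, of each gene well above background on at least 1 array (1 array per condition), by gene list. Filled points were measured on both arrays, open points are bounds, and dotted lines mark 2-fold. Among the 10 MMP and TIMP genes (top row) only Mmp13 passes the line.

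The identity of the cells was read from marker genes. Of 6 macrophage markers, 5 had a probe and all 5 were well above background on both arrays. Csf1r, the receptor for M-CSF, had intensities of 146026 and 166510. Mertk, a receptor for apoptotic cells, was 2.20-fold lower after IL-4, at -1.14 on the log2 scale, and lay inside the 2-fold limit with median scaling at -0.92 and with spike-in scaling at -0.81. Itgam had -0.71 at its brightest probe and -0.27 and -0.24 at its others. Lyz2 had -0.70, Csf1r 0.09 and Adgre1 0.17. The median of the 5 markers by brightest probe was -0.70, and it would be less negative with either of the other Itgam probes. Their summed intensity, the largest part of it from Csf1r, was 279206 in untreated and 266677 in IL-4-treated BMDMs. The IL-4 label was matched by Arg1, 216-fold higher, Chil3, 14.2-fold higher, Mrc1, 5.33-fold higher, and Retnla, at least 595-fold higher, which are known markers of IL-4-treated macrophages. Genes of fibroblasts and marrow stroma were detected as well. All 8 of these markers were well above background on both arrays, and none was 2-fold different. Their summed intensity was 373762 in untreated and 362732 in IL-4-treated BMDMs, a scaled log2 difference of -0.14, and 6 of 8 were below 0. Col1a1 had intensities of 58153 and 49150, Col1a2 of 233342 and 234332, Dcn of 10912 and 10595, Pdgfra of 785 and 1195 and Lum of 143 and 219. MMP2, MMP3, MMP13, TIMP1 and TIMP3 are also products of stromal cells, and these arrays do not show which cells their signals came from. The methods describe BMDM cultures as nearly pure by flow cytometry for CD11b and F4/80. Of the 8 stromal markers, Lum had the highest log2 difference at 0.52. The share of stromal RNA in the MMP and TIMP signals was not tested, nor was a difference of Mmp13 within stromal cells.

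Of 7 osteoclast markers, 6 were well above background on both arrays and Calcr, the calcitonin receptor, on neither. Ocstamp, needed for the fusion of osteoclast precursors, was 7.77-fold higher after IL-4, from 79.2 to 659, a log2 difference of 2.96 that was 2.02 with normexp. Dcstamp, which also acts in this fusion, had -0.12. Acp5, the brightest of them, had a log2 difference of 0.25, Atp6v0d2 0.64 and Ctsk -0.26. The summed intensity was 55449 in untreated and 68398 in IL-4-treated BMDMs, a scaled log2 difference of 0.20. MMP9 is abundant in osteoclasts, and the part of such cells in the value of Mmp9 was not tested.

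Other ways of processing the arrays left Mmp13 apart from the other 9 genes. Over 14 settings its log2 difference lay between 1.51 with normexp and 1.99 with spike-in scaling, past 2-fold in each. Settings that changed only filters, bounds, outlier spots or the choice of probe could hardly move it. Mmp12 lay between 0.18 and 0.56 and Mmp8 between -0.67 and -0.28, without a change of sign. Each of the remaining 7 genes changed sign in at least 1 setting, among them scalings that shift all genes alike. The median over all genes shifted by 0.21 with median scaling and by 0.33 with spike-in scaling. Relative to these shifts, Mmp13 stayed between 1.54 and 1.67 and Mmp8 between -0.63 and -0.56. Mmp2 stayed between -0.14 and -0.02, Mmp9 between -0.11 and -0.07, Mmp14 between -0.27 and -0.14 and Mmp19 between -0.27 and -0.22, all below 0. Timp1 lay between -0.08 and 0.10, Timp2 between -0.08 and 0.07 and Timp3 between -0.06 and 0.05.

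**Figure D5:**
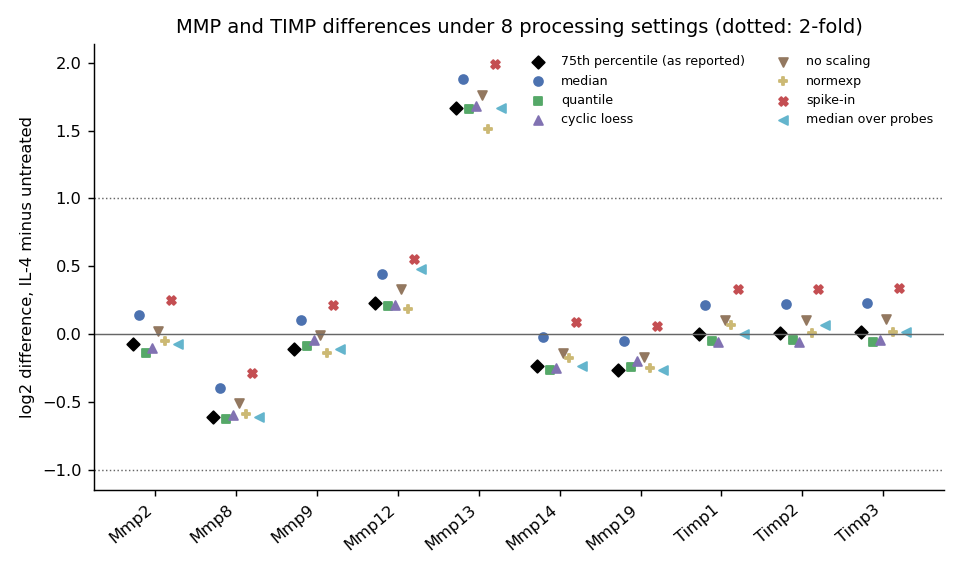
Log2 difference, IL-4-treated minus untreated, of the 10 genes under 8 of the 14 processing settings (symbols), 1 array per condition, with dotted lines at 2-fold. Mmp13 stays between 1.51 and 1.99, and the other genes stay between the dotted lines.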

How the data were processed

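RNA of untreated and IL-4-treated BMDMs was hybridised to 1 array each. The authors deposited Agilent Feature Extraction 10.10.1.1 output, with an intensity per spot from which background and spatial trends had been removed but with no scaling between arrays. A table of processed log2 values was deposited too, whose tool and settings are not given in the sources used here. Its column medians were 0.16 for untreated and 0.016 for IL-4, and its centring is unknown. Its differences matched those of the scanner intensity after the percentile scaling used here, within 0.000565 (log2) for every probe of the 10 genes. For Mmp13 the processed difference was 1.6645, against 1.6640 with this scaling and 1.7636 without scaling. For these probes its scaling between arrays was therefore in effect the same.

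Outlier spots were left out, spots of a probe were averaged on the log2 scale and each array was scaled to its 75th percentile. A gene was read from its brightest probe. A probe well above background on 1 array gives a bound, taken against its signal on the other array or, where higher, the lowest signal there that passed the background flag. Of 39429 probes, 27234 were named through RefSeq accessions (GRCm38.p6), while the array design was annotated on mm9. A difference of at least 2-fold was counted without a test. On simulated arrays all 200 probes changed 4-fold were recovered and 0 of the unchanged ones were called. These arrays had equal noise at every signal, no spread between cultures, and changes only in probes well above background. The simulation checks that the steps run correctly and does not measure how reliable a 2-fold difference is. Genes named outside the 10 are those of the lists at least 2-fold different, the brightest of each list and 4 markers of IL-4 treatment, and any others were chosen after their values were seen. The members, lists and rules were chosen with earlier results of these data known. No protein sequences were compared. Alternatives were other scalings, normexp with an offset of 50 on the median pixel intensity, 8 spike-in probes, other filters and probe rules, cutoffs of 0.5 and 1.5 and the authors' processed values. Calculations used R 4.3.3 with limma 3.58.1 and Python 3.11.15 with pandas 2.3.3 and numpy 2.4.6. The values of 1 gene are not reported here.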

Additional observations from a re-analysis of the deposited data

How the results depend on the processing

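No paired analysis was possible because a single array stands for each condition. Mmp13 was the 1 gene of 10 at least 2-fold higher under each alternative run, and 0 were lower except at a log2 cutoff of 0.5, where Mmp8 made 1. Of 130 values of the 10 genes under the alternatives, 82 stayed within the spot SD, 48 moved further and 0 past the cutoff changed sign. Many of these values could hardly move. All 12 probes passed the background flag with no outlier spot, so filters, bounds and outlier spots left the 10 genes almost unchanged. Rules on probes could change only Mmp12 and Timp2, and the authors' processed differences nearly equalled the scaled differences as reported. The 82 values are therefore no measure of stability. Over all genes, 564 were higher and 883 lower as reported. Spike-in scaling gave 1024 higher and 451 lower, normexp 297 and 268, and the authors' processed values 848 and 1645. Without filter and bounds the counts were 1389 and 4074. With genes measured on both arrays they were 363 and 270 from the brightest probe, and 339 and 270 from the mean over probes. A log2 cutoff of 0.5 gave 1467 and 2689, and one of 1.5 gave 228 and 302. Lower genes numbered 564 under median scaling and 532 under quantile normalization. Filters and cutoffs change these counts by construction, and for the rest the cause was not tested. Higher genes made up 39.0% of all 2-fold different genes as reported, 59.5% under median scaling, 60.1% under quantile normalization, 52.3% under cyclic loess, 48.8% without scaling, 52.6% under normexp and 69.4% under spike-in scaling. No replicate could be left out. The 10 genes were bright enough that none of their values rests on a bound.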

Other observations

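Lysosomal proteases, which also break down matrix, differed little between the arrays. Of 17 cathepsin and cystatin genes, 16 were well above background on at least 1 array and 15 on both. The 15 had a median log2 difference of -0.10 and lay between -0.40 and 0.37. Ctsd, the brightest, was at -0.40, with intensities of 225712 in untreated and 183440 in IL-4-treated BMDMs, and its dimmer probe at -0.81. Cst7, which encodes cystatin F, an inhibitor of lysosomal cysteine proteases, was the 1 gene of the list at least 2-fold different. It went from 28.5, not well above background, to 352, at least 11.3-fold higher, and its log2 difference moved from 3.49 to 1.49 with normexp.

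Of 20 genes for matrix proteins that MMPs cleave, 18 were well above background on at least 1 array and 17 on both, and none of the 18 was 2-fold different. The 17 had a median log2 difference of -0.04. The brightest, Col1a2, was at -0.09, and fibronectin, Fn1, went from 101891 to 110595, a log2 difference of 0.02. Spp1, which encodes osteopontin, was at 0.24, and versican, Vcan, at 0.40 at its brightest probe, though its other 2 probes gave -0.08 and an upper bound of -1.20. Col2a1, a collagen of cartilage, had intensities of 21874 and 27465 and a log2 difference of 0.23. Eln, which encodes elastin, the substrate that gives MMP12 its name, was well above background on neither array.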
